A study of Mus musculus with 1248 samples.

Results

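The comparison set 4T1 cells from a mammary fat pad tumour against 4T1 cells in culture, 139 cells of 498 tumour cells and 1248 wells in the whole series. 4T1 is a mouse mammary carcinoma line of BALB/c origin that spreads on its own from the fat pad to lung, bone and other organs. The fat pad cells came from a primary tumour in female BALB/c mice, taken on day 22, and the culture cells from the same line grown in vitro. Both carried firefly luciferase and mCherry, as did all cells injected in the study, and mCherry-positive cells were sorted one per well. The study itself followed 4T1 and the subline 4T1.2 in the hindlimbs on days 4, 10 and 16 after intracardiac injection, and the fat pad and culture wells were its added controls. The labels do not say whether the line was 1 clone, how many mice gave the tumour wells, which plate held which group or how the tumour was dissociated. Each group was therefore counted as 1 sample, and no p-value, standard error or test of a difference is given. A gene was called higher or lower where the summed counts of the groups lay at least 2-fold apart.

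A tumour cell was a well with at least 1000 genes, at least 50000 gene counts and at most 25% mitochondrial counts, in which Krt8 and Krt18 together exceeded the sum of 10 blood-cell genes. Krt8 and Krt18 encode the keratin pair of simple epithelia, and the 10 genes (among them Ptprc, the pan-leukocyte CD45) are shared by nearly all blood cells. Values below are gene counts scaled to a common library total (CPM). Of 96 fat pad wells, 95 passed the quality limits and 85 met the keratin rule. The other 10 (10.5% of those that passed, exact binomial 95% interval 5.16 to 18.5%) had blood-cell levels and are called host-like wells. All 54 culture wells met the rule. The summed Krt8 and Krt18 level ran from 865 to 12411 CPM (median 4634) over the fat pad cells and from 1017 to 9474 CPM (median 2937) over the cultured cells. In the host-like wells it ran from 53.9 to 125 CPM, with 1954 to 7178 CPM of the 10 blood-cell genes. The closest fat pad well inside the rule had a keratin sum 11.0 times its blood-cell sum, and the closest outside had 0.0383 times. The cells were chosen by these keratin and blood-cell values, which are given as a description only.

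**Figure D1:**
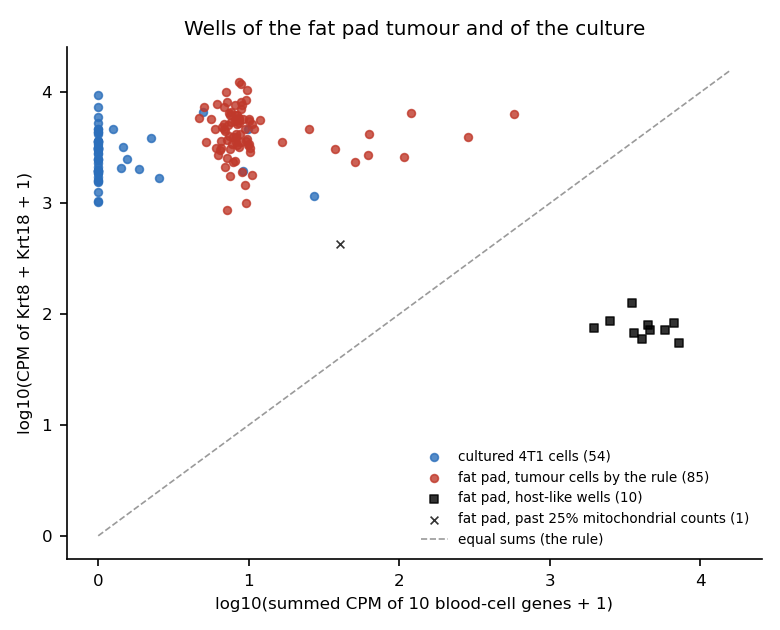
Each point is 1 well, with log10(CPM + 1) of the 10 blood-cell genes summed on the x axis and of Krt8 and Krt18 summed on the y axis; the dashed line marks equal sums and the cross the 1 well past 25% mitochondrial counts. The 85 fat pad tumour cells and 54 cultured cells lie at 865 CPM of keratin or more, and the 10 host-like wells at 125 CPM or less.

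A tumour in the fat pad grows among vessels, stroma and immune cells, with a limited supply of oxygen and nutrients, while cultured cells divide in rich medium with none of these neighbours. Interferon gamma, made by T and NK cells, is known to raise MHC class I and class II genes and the guanylate-binding proteins. The class II pathway is otherwise mostly a property of professional antigen-presenting cells, and its master activator is Ciita.

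Total gene counts per cell ran from 347543 to 4052849 in the fat pad and from 294795 to 5468263 in culture, with overlapping ranges. The median number of detected genes was 9840 in the fat pad (5796 to 11313) and 11295 in culture (9292 to 13222). Mitochondrial counts had a median of 4.45% in the fat pad and 2.68% in culture. ERCC spike-ins, added in an amount the sources leave out, took a median of 0.284% of the counts in fat pad cells and 0.0976% in cultured cells. The mCherry median was 594 CPM in the fat pad and 544 CPM in culture. The 10 blood-cell genes, on which the wells were selected, had medians of 7.36 CPM in the fat pad tumour cells, 4287 CPM in the host-like wells and 0 in culture. The part of host RNA in the results was not tested. For genes with many low values, shares of cells at 20 CPM or more are given in place of detection. Macrophage markers (12 genes) summed to 20.2 to 1521 CPM in fat pad tumour cells, with a median of 33.6, against a median of 21979 CPM in host-like wells. Fibroblast markers (11 genes) had a median of 0.662 CPM and reached 260 CPM in 1 cell. Among them Dcn, Lum and Col3a1 were at 0, while Pdgfra summed to 20.4 CPM in the fat pad and 4.57 CPM in culture (log2 ratio 1.41), Col1a1 to 4.77 and 0.597 CPM and Pi16 to 2.92 and 0.0976 CPM. Adipocyte markers were at 0 except in cells reaching 1.04 CPM at most, and no B cell, T cell or erythroid list had a median above 0. Their highest fat pad values were 45.4 CPM for B cell, 165 CPM for T and NK cell and 34.0 CPM for erythroid markers. Of the 10 T and NK cell genes, 9 had a count in the fat pad tumour cells, 1 in culture and 1 in host-like wells. One fat pad cell held 573 CPM of the blood-cell genes, the only one above 300 CPM.

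Summed over cells and scaled by TMM, 10514 genes reached 5 CPM in either group. Of these, 1360 (12.9%) were at least 2-fold higher in the fat pad tumour and 1021 (9.71%) at least 2-fold lower, on the log2(CPM + 5) scale used for every log2 ratio here. These percentages are the background for the counts below. A gene under 5 CPM in one group entered only through the other group, where it was higher. Over all 10514 genes the log2 ratio had a median of 0.02. Without TMM the counts were 1123 higher and 1402 lower, a shift of the median by -0.15, which moved the share of higher calls from 57.1% to 44.5%. A stricter reading asked that the 10th percentile of one group lie above the 90th percentile of the other: 78 genes (0.742%) stood apart upwards and 101 (0.961%) downwards. For a gene at 20 CPM or more, the exact Poisson 95% interval of a summed level reached at most 3.38% above its value. It covers counting error only, since reads of 1 molecule were amplified together and carry no molecular identifier.

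**Figure D2:**
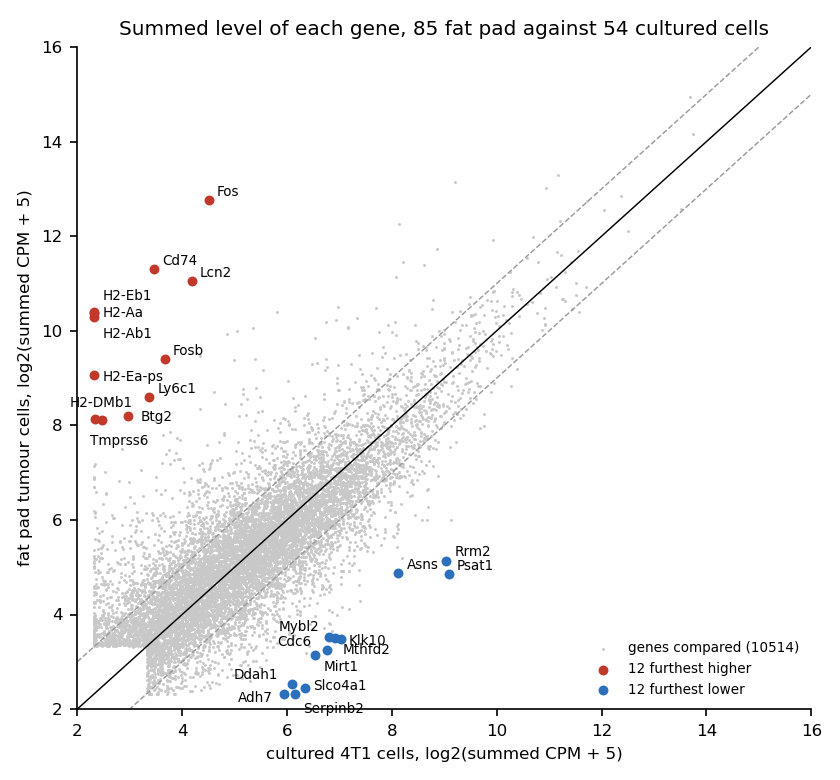
Each point is 1 of 10514 genes, with the summed level in culture on the x axis and in the fat pad tumour on the y axis, as log2(CPM + 5). The 1360 genes at least 2-fold higher and 1021 at least 2-fold lower lie outside the dashed 2-fold lines, and class II genes and Fos lie furthest above the diagonal; the 12 furthest genes each way are named.

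MHC class II genes were the group furthest above culture. The 2 chains of the I-A molecule, H2-Aa and H2-Ab1, and the I-E beta chain H2-Eb1 present peptides to CD4 T cells, and all 3 had no count in any cultured cell. H2-Aa ran from 49.9 to 4328 CPM over fat pad cells (median 1084), H2-Ab1 from 56.6 to 3285 CPM (median 997) and H2-Eb1 from 24.2 to 3870 CPM (median 1131). Every one of 85 fat pad cells had more than every cultured cell. Summed levels were 1332 CPM for H2-Aa, 1251 CPM for H2-Ab1 and 1340 CPM for H2-Eb1, with log2 ratios of 8.06, 7.97 and 8.07. They were 77353, 72634 and 77795 times the level of 3 counts over the whole culture group. That level is a counting limit and no limit on expression, since reads of 1 molecule were amplified together. The I-E alpha locus, listed as the pseudogene H2-Ea-ps after the reference strain, ran from 8.27 to 1653 CPM (median 393) in the fat pad and was also at 0 in culture. After thinning every cell to 500000 counts, 100% of 84 fat pad cells held H2-Ab1, H2-Aa and H2-Eb1 at 20 CPM or more, and 0% of 53 cultured cells did (upper exact 95% bound 6.72%). Without thinning the shares were the same, 100% and 0%. Every host-like well also exceeded 20 CPM, with lowest values of 159 CPM for H2-Ab1, 22.5 CPM for H2-Aa and 25.2 CPM for H2-Eb1. This cut therefore does not separate those wells from the tumour cells. The host-like wells also held 16.6 to 30.8 CPM of Epcam, and the part of RNA shared among wells of the tumour was not tested.

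The chaperones of the pathway were higher as well. Cd74, the invariant chain that guards the peptide groove, ran from 91.6 to 6490 CPM (median 2203) in the fat pad and from 0 to 118 CPM (median 0) in culture, with 84 of 85 fat pad cells above the highest cultured cell. Its summed level was 2529 CPM (log2 ratio 7.85 over 5.96 CPM). H2-DMb1, a chain of the peptide-exchange factor H2-M, ran from 2.17 to 705 CPM (median 241) against at most 1.86 CPM in culture. Ciita itself was patchy, from 0 to 374 CPM (median 3.42) in the fat pad, and 47 of 85 cells lay above the highest cultured cell at 1.79 CPM. The host-like wells held medians of 1158 CPM of H2-Ab1 and 3318 CPM of Cd74. Of 12 listed class II genes 10 reached 5 CPM, and genes at 0 in culture did so only through the fat pad. Of the 10, 9 were at least 2-fold higher and none lower. The median log2 ratio was 5.33, or 6.82 with genes at 0 in culture set against 3 counts. Of these 10, 9 also stood apart by the percentile reading.

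Promoters of H2-Aa and H2-Eb1 are shown because both hold the Y box, a CCAAT-type element of class II promoters. The sequences are the 250 bases before the RefSeq start (GRCm38.p6) at chr17:34287824-34288073 on the minus strand and chr17:34305617-34305866 on the plus strand, with the motif CTGATTGG in capitals.
H2-Aa: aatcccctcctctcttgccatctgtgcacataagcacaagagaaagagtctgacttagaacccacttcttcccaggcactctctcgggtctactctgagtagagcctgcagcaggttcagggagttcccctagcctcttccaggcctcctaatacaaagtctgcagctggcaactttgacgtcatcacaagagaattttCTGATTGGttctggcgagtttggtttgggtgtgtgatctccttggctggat
H2-Eb1: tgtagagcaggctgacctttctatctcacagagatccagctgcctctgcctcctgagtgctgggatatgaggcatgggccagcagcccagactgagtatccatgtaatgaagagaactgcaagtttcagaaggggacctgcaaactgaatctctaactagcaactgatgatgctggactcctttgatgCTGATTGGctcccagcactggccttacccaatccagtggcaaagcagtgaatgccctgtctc
The match started at -51 in H2-Aa and at -62 in H2-Eb1, counted from the start site. Searched on both strands over 300 bases (250 before to 50 after the start), CTGATTGG was present in 3 of 8 class II genes with a promoter in the table (37.5%), the other being H2-Oa, and in 4.10% of 32851 promoters. H2-Oa stayed under 5 CPM in both groups.

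Class I genes were present in culture and higher in the tumour. B2m, the light chain shared by all class I molecules, ran from 3657 to 20058 CPM (median 9098) in the fat pad and from 678 to 5205 CPM (median 2339) in culture. All but 3 fat pad cells, 82 of 85, lay above the highest cultured cell, and the summed levels of 10076 (10063 to 10089) and 2283 CPM gave a log2 ratio of 2.14. Psmb9, an immunoproteasome subunit that shapes peptides for class I, ran from 5.12 to 699 CPM (median 287) against 0 to 185 CPM (median 26.4), a log2 ratio of 2.84. Tap1, which carries peptides into the endoplasmic reticulum, had medians of 289 and 42.2 CPM and a log2 ratio of 2.23. Psmb9 and Tap1 overlap on opposite strands of chromosome 17, and the sources do not say whether counting used strand. H2-Q4 had a log2 ratio of 2.20, although reads of H2-Q, H2-D and H2-K genes can be split among near-identical copies. Calr, the general chaperone of the list, had a log2 ratio of -0.14. Of 22 class I genes 17 were at least 2-fold higher and none lower (median 1.71).

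The interferon lists divided. Gbp4, a guanylate-binding protein induced by interferon gamma, ran from 5.22 to 2436 CPM (median 224) in the fat pad and from 0 to 361 CPM (median 2.61) in culture. All 85 fat pad cells exceeded the cultured median and 32 the highest cultured cell. Every host-like well exceeded that median as well (4.61 to 783 CPM), so it does not separate those wells from the tumour cells. The log2 ratio of Gbp4 was 3.50. Casp1, an inflammatory protease, had medians of 72.0 and 0.418 CPM (log2 ratio 2.96), and Gbp8 had a log2 ratio of 2.86, although its gene overlaps Gbp4. Cxcl9, the T cell attracting chemokine, was concentrated in few cells: its median was 0.993 CPM and its highest value 1347 CPM, with 13 of 85 cells above the highest cultured cell at 86.2 CPM. Of 25 listed interferon gamma genes 19 were at least 2-fold higher and 2 lower, with a median of 1.69. The lower ones were Cxcl11 and Icam1 (-1.12 and -1.01), and both changed direction, to 0.59 and 0.64, once the highest cell of each gene was left out of both groups.

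Genes of the type I interferon list, which respond to alpha and beta interferons, were at least 2-fold lower in 15 of 44 cases and otherwise mostly within 2-fold. Oasl1, a relative of the oligoadenylate synthetases, ran from 0.322 to 914 CPM (median 2.08) in the fat pad and from 3.6 to 2175 CPM (median 128) in culture. Of 85 fat pad cells 53 lay under the lowest cultured cell, while 8 lay above the cultured median. Ifit1, an antiviral RNA-binding protein, had medians of 0.92 and 61.6 CPM, and 42 fat pad cells lay under the lowest cultured cell at 0.877 CPM. The log2 ratios were -2.35 for Oasl1, -2.18 for Ifit1 and -2.02 for Ddx58, the RNA sensor RIG-I. Rsad2 was at -2.22 and turned to 0.04 when the host-like wells were counted in. The list's median was -0.79.

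The interferon-stimulated response element, searched as GAAA, any 2 bases and GAAA on both strands over the same 300 bases, was in 16 of 33 type I genes with a promoter in the table, in 10 of 16 interferon gamma genes and in 5 of 20 class I genes, against 3.44% of all promoters. Ifit1, lower in the tumour, and B2m, higher in it, are shown since both hold the element. They cover chr19:34640639-34640888 and chr2:122147437-122147686, both on the plus strand, with matches in capitals.
Ifit1: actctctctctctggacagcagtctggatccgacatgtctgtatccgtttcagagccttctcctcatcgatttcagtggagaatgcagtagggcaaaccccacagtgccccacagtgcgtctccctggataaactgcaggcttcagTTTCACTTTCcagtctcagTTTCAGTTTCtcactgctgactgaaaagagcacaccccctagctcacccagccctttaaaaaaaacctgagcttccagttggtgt
B2m: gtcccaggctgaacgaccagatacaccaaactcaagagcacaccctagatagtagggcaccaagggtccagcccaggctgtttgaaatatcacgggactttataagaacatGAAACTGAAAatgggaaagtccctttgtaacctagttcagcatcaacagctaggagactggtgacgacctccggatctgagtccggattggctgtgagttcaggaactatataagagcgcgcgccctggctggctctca
Ifit1 held 2 matches, at -104 and -85, in the reverse orientation, and B2m held 1, at -139. The match alone thus occurred in genes on either side of the comparison.

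Complement and acute phase genes that reached 5 CPM were higher in the fat pad, with lipocalin 2 furthest. Lcn2, which binds the siderophores that bacteria use to take up iron, ran from 19.6 to 12484 CPM (median 1181) in the fat pad and from 0 to 149 CPM (median 1.48) in culture. Of 85 fat pad cells 69 exceeded the highest cultured cell, and the summed levels of 2106 and 13.1 CPM gave a log2 ratio of 6.86. Lcn2 is also a neutrophil granule gene. The host-like wells had a median of 32.0 CPM. The 12 neutrophil markers, Lcn2 among them, summed to 22.3 to 12486 CPM (median 1194) in fat pad tumour cells, to a median of 2.05 CPM in culture and to one of 224 CPM in those wells. Of the 12, 3 had a median above 0 in the fat pad tumour cells. Another, lactoferrin (Ltf), was higher with Lcn2, at a summed 98.9 CPM in the fat pad and 0.0115 CPM in culture. S100a8 summed to 1.06 CPM in the fat pad and 8.09 CPM in culture, and Mpo was at 0 in both. The part of neutrophil RNA in these values was not tested. The S100a8 ratio of -1.11 rested on 1 cultured cell and was 0.00 with the highest cell of each group left out. At 20 CPM or more, Lcn2 was held by 96.4% of thinned fat pad cells (exact 95% interval 89.9 to 99.3%) and 9.43% of cultured cells, and without thinning by 97.6 and 11.1%. Every host-like well also exceeded 20 CPM of Lcn2 (25.5 to 44.3 CPM), so this cut does not separate those wells from the tumour cells.

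Cp, ceruloplasmin, the copper ferroxidase that loads iron onto transferrin, ran from 8.61 to 2033 CPM (median 620) against 0 to 131 CPM (median 3.74), with 79 of 85 fat pad cells above the highest cultured cell. Its log2 ratio was 5.12. Tmprss6, a membrane protease known in liver for restraining hepcidin, ran from 2.00 to 1209 CPM (median 175) while 53 of 54 cultured cells were at 0 and the other at 24.5 CPM. Its log2 ratio was 5.64. Tfrc, the transferrin receptor for iron uptake, went the other way, from 0 to 273 CPM (median 1.85) in the fat pad and from 85.5 to 697 CPM (median 297) in culture. The log2 ratio of Tfrc was -2.99, and 77 of 85 fat pad cells lay under the lowest cultured cell. Of the complement proteases, C1s1 had a log2 ratio of 2.72, and C4b, the C4 component, had 3.82, with medians near 0 and highest values of 820 and 930 CPM. Of 22 listed genes 7 reached 5 CPM, and all 7 were at least 2-fold higher. Their median was 2.72, or 3.82 with genes at 0 in culture set against 3 counts. The other 15, including the serum amyloid and C-reactive protein genes, stayed under 5 CPM in both groups. Members under 5 CPM in culture entered only through the fat pad, so the count of higher genes depends on this filter. Under the alternative settings the list's median ran from 0.34 to 5.31.

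Immediate early genes are transcribed within minutes of a stimulus, and on the mean log2 level of the list 72 of 85 fat pad cells lay above the highest cultured cell and 1 under the lowest. Fos, the AP-1 subunit, ran from 102 to 19324 CPM (median 5317) in the fat pad and from 0 to 147 CPM (median 0.247) in culture, and 84 of 85 fat pad cells exceeded the highest cultured cell. The summed levels were 6916 CPM (6905 to 6927) and 17.7 CPM, a log2 ratio of 8.25, the largest on this scale. Fosb, its paralogue, ran from 8.37 to 2592 CPM (median 585) against 0 to 65.7 CPM (median 0.379), a log2 ratio of 5.74. Egr1, a zinc finger factor of the same response, had medians of 783 and 8.61 CPM and a log2 ratio of 4.95, and 40 fat pad cells exceeded the highest cultured cell. Btg2, an antiproliferative early gene, ran from 2.17 to 1250 CPM (median 128) against 0 to 40.1 CPM (median 0), a log2 ratio of 5.23. The host-like wells of the same tumour had medians of 880 CPM of Fos, 265 CPM of Fosb and 24.9 CPM of Egr1. Of 33 immediate early genes at 5 CPM or more, 26 were at least 2-fold higher and none lower (median 2.20). Fosl1, a member of the list, and Myc went the other way, within 2-fold, at log2 ratios of -0.96 and -0.86.

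The promoter of Btg2 (chr1:134079156-134079405, minus strand) is shown because it holds a full cyclic AMP response element, TGACGTCA, in capitals at -166.
Btg2: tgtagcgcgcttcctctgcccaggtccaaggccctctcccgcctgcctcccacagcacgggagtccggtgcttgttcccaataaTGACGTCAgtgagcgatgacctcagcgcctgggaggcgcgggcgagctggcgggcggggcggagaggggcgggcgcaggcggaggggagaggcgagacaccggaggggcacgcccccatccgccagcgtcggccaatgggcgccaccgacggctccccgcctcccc
The element was in 2 of 25 immediate early genes with a promoter in the table, the other being Dusp1 at -143, and in 1.79% of all promoters. An AP-1 site, TGANTCA, was in 0 of 25 and in 7.81% of all promoters.

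Cell cycle genes were lower nearly throughout. Rrm2, the ribonucleotide reductase subunit that supplies deoxynucleotides in S phase, ran from 0 to 606 CPM (median 0.387) in the fat pad and from 27.2 to 1532 CPM (median 508) in culture. Of 85 fat pad cells 69 lay under the lowest cultured cell, and the summed levels of 30.3 and 522 CPM gave a log2 ratio of -3.90. Mcm5, of the replicative helicase, had medians of 1.3 and 506 CPM (log2 ratio -3.13), and Cdc6, which loads that helicase, had a log2 ratio of -3.52. Ccna2, the cyclin of S phase and early mitosis, ran from 0 to 745 CPM (median 0.639) against 16.4 to 1311 CPM (median 396), a log2 ratio of -2.69. Birc5 (survivin) and Aurka, both of the mitotic apparatus, were each at -2.33, and Mybl2, an activator of late cell cycle genes, was at -3.27. Of 38 S phase genes 34 were at least 2-fold lower (median -1.97), of 40 G2 and M genes 36 were (median -1.63), and none was higher.

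The summed levels hide a split among the fat pad cells. Thinned to equal depth, 14.3% of 84 fat pad cells held Ccna2 at 20 CPM or more (7.61 to 23.6%) against 98.1% of 53 cultured cells. For Rrm2 the shares were 19.0 and 100%, and for Mcm5 38.1 and 100%. Unthinned, they were 14.1 and 98.1% for Ccna2, 18.8 and 100% for Rrm2, and 37.6 and 100% for Mcm5. On the mean log2 level of the S phase list, 78 of 85 fat pad cells lay under the lowest cultured cell, and on that of the G2 and M list 76 did while 1 lay above the highest. The S phase and the G2 and M scores went together over fat pad cells (Spearman rho 0.51, n = 85) and opposed each other over cultured cells (-0.59, n = 54). Each group is 1 sample and its cells are not replicates, so these are descriptions. The intervals of shares do not cover the spread between mice. In the fat pad the S phase score also followed the number of genes detected (rho 0.53), whose part was not tested. Among growth arrest genes 10 of 21 were at least 2-fold higher and none lower (median 0.89). Txnip, a thioredoxin inhibitor that limits glucose uptake, had medians of 41.0 and 0.324 CPM (log2 ratio 3.42). Sesn3, a stress-induced restraint on mTORC1, had medians of 108 and 6.71 CPM (3.43).

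**Figure D3:**
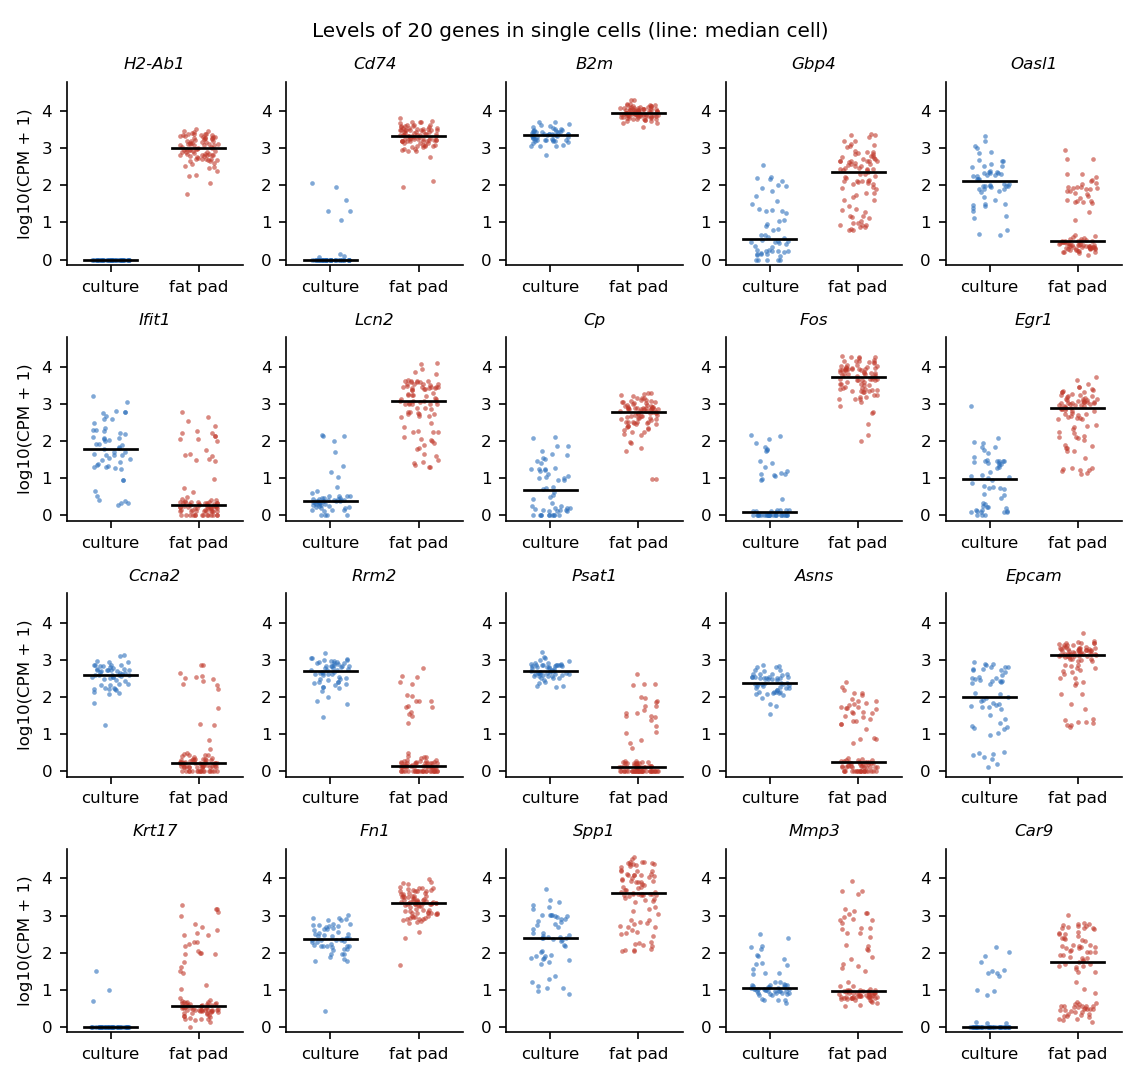
Each point is 1 cell, with log10(CPM + 1) on the y axis for 20 genes, cultured cells (blue) beside fat pad tumour cells (red); horizontal lines mark the median cell. H2-Ab1 does not overlap between groups, Rrm2 and Psat1 are near 0 in most fat pad cells, and Mmp3 and Krt17 are high in a minority of fat pad cells.

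Of 24 genes of the integrated stress response and amino acid supply, 9 were at least 2-fold lower and 2 higher (median -0.63). Psat1, of the serine pathway, ran from 0 to 410 CPM (median 0.325) in the fat pad and from 180 to 1572 CPM (median 513) in culture. Of 85 fat pad cells 81 lay under the lowest cultured cell. With a log2 ratio of -4.23 (summed 23.9 and 536 CPM) Psat1 was the gene furthest lower. Asns, asparagine synthetase, had medians of 0.745 and 236 CPM (log2 ratio -3.24), with 64 of 85 fat pad cells under the lowest cultured cell. Mthfd2, a mitochondrial enzyme of folate metabolism, had medians of 0 and 112 CPM (-3.40). Chac1, a glutathione-degrading target of the stress factor ATF4, had a median of 0 in the fat pad and 9.28 CPM in culture (-3.19). The higher members were Nupr1 and Ppp1r15a. Nupr1, a stress-induced chromatin protein, had medians of 615 and 44.5 CPM (3.32), and Ppp1r15a, which resets the response through eIF2 alpha, had 76.4 and 7.35 CPM (2.82).

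Chac1 is shown (chr2:119350992-119351241, plus strand) because its window holds the ATF4 element TGATGNAA, in capitals in the reverse orientation at -193.
Chac1: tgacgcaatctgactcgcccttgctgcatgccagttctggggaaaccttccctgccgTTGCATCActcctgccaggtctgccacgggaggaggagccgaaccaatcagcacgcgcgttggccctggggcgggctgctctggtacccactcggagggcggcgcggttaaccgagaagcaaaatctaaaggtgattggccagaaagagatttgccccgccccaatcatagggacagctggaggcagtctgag
The element was in 6 of 21 listed genes with a promoter in the table (28.6%) and in 3.97% of all promoters. Among the 6 were Chac1 and Asns, which were lower in the fat pad, and Nupr1, which was higher.

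Hypoxia genes were higher in a fraction of the cells. Car9, the carbonic anhydrase that marks poorly oxygenated tumour, ran from 0.343 to 1054 CPM (median 55.8) in the fat pad and from 0 to 138 CPM (median 0) in culture. All 85 fat pad cells exceeded the cultured median but 27 the highest cultured cell; the log2 ratio was 3.34. Adm, the vessel-dilating peptide adrenomedullin, had a ratio of 3.04 from 21 cells above the cultured range, with a median of 1.09 CPM. Egln3, an oxygen-sensing prolyl hydroxylase, and Bnip3, of mitochondrial autophagy, were at 1.93 and 1.90. Of 22 hypoxia genes 12 were at least 2-fold higher and 1, Stc2, lower (median 1.21). In the median cell the list's median was -0.43, where that of all genes was -0.74. Glycolysis as a list did not follow: 4 of 18 genes were at least 2-fold higher and none lower, with a median of -0.07. Aldoc, an aldolase isoform, was at 3.26 and Hk2 at 1.58, while Ldha, lactate dehydrogenase, was at -0.99 (summed 1394 and 2779 CPM). The core hypoxia motif ACGTG was in 11 of 19 hypoxia promoters and 10 of 19 glycolysis promoters, against 19.6% of all.

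Oxidative stress genes, many of them targets of NRF2, tended lower: 7 of 25 were at least 2-fold lower and 3 higher (median -0.42). Nqo1, a quinone reductase, had medians of 0 and 35.8 CPM (log2 ratio -2.45). Gclm, of glutathione synthesis, had 2.17 and 108 CPM (-2.05), and Me1, malic enzyme, was at -1.79. Mt1 (metallothionein) and Slc39a4, a zinc importer, were on the higher side at 1.62 and 1.66.

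Further genes among the 12 furthest lower had little or no count in the tumour. Slco4a1, an organic anion transporter, had a highest fat pad value of 44.7 CPM against a cultured median of 30.5 CPM, and 84 of 85 fat pad cells lay under the lowest cultured cell (log2 ratio -3.90). Adh7, an alcohol dehydrogenase that oxidises retinol, had 3 counts in all fat pad cells together and a summed 56.5 CPM in culture. Ddah1, which clears asymmetric dimethylarginine, was at -3.55, the kallikrein Klk10 at -3.54 and the long non-coding RNA Mirt1 at -3.39. Serpinb2, an inhibitor of urokinase, had no count in any fat pad cell; in culture it summed to 65.7 CPM, of which the median cell held 0.714 CPM and the highest 1475 CPM.

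Of 22 TGF-beta response genes 13 were at least 2-fold higher and 1, the integrin Itgb6, lower (median 1.2). Ltbp3, which anchors latent TGF-beta in the matrix, ran from 66.4 to 1333 CPM (median 323) in the fat pad and from 0 to 111 CPM (median 24.5) in culture, with 82 of 85 fat pad cells above the highest cultured cell and a log2 ratio of 3.31. Ltbp2 was at 2.16, the signal transducer Smad3 at 1.88 and the receptor Tgfbr2 at -0.97. Fn1, fibronectin, ran from 44.1 to 9596 CPM (median 2124) against 1.74 to 1021 CPM (median 236), a log2 ratio of 3.23. Col6a1, a collagen VI chain, was at 3.54 and Tnc, tenascin C, at 2.84, with medians of 14.4 and 6.17 CPM and highest values of 2014 and 869 CPM. Of 21 collagen and basement membrane genes 10 were at least 2-fold higher and none lower (median 0.91). Lamb2, among the 10 at 1.90, was lower in the median cell (-0.69), where all genes had a median of -0.74. Of 12 integrins 4 were higher and 1 lower (median 0.35), with Itgb4, of hemidesmosomes, at 2.19.

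Epithelial genes were within 2-fold in 20 of 32 cases, with some adhesion genes higher. Epcam, the epithelial adhesion molecule, ran from 14.4 to 5116 CPM (median 1379) in the fat pad and from 0.292 to 896 CPM (median 96.5) in culture; 59 fat pad cells exceeded the highest cultured cell and 10 lay at or under the cultured median. Its log2 ratio was 2.78. Cldn4, a tight junction claudin, had medians of 555 and 29.1 CPM (2.66), and Elf3, an epithelial transcription factor, was at 2.09. Of the 32, 10 were at least 2-fold higher and 2 lower (median 0.66). Krt17, a keratin of basal and stressed epithelium, was patchy, with a median of 2.70 and a highest value of 1947 CPM against at most 31.0 CPM in culture. It reached 20 CPM in 28.6% of thinned fat pad cells (19.2 to 39.5%) and 1.89% of cultured cells, and unthinned in 28.2 and 1.85%. Krt14, the other basal keratin, and the mesenchymal filament Vim were within 2-fold in sums (0.16 and 0.21). Of 15 mesenchymal genes 5 were at least 2-fold higher and none lower (median 0.24).

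Secreted matrix and protease genes were uneven from cell to cell. Spp1, osteopontin, ran from 108 to 36827 CPM (median 3976) against 6.78 to 5315 CPM (median 254), a log2 ratio of 3.95. Mmp3, stromelysin 1, summed to 432 and 30.7 CPM (3.61), yet its medians were 7.97 and 10.1 CPM. Its sum thus came from some cells: 19 of 85 exceeded the highest cultured cell, and the median cell gave -0.11, where all genes had a median of -0.74. Mmp9 and Mmp13, a gelatinase and a collagenase, were at 2.75 and 3.48 with medians of 12.7 and 3.21 CPM, and Plat, tissue plasminogen activator, was at 3.14. Mmp13 and Mmp9 had medians of 93.2 and 14.6 CPM in the host-like wells. Of 23 protease and inhibitor genes 10 were at least 2-fold higher and 1, Serpinb2, lower (median 0.95). Ibsp, the bone sialoprotein, had no count in culture and summed to 98.8 CPM in the fat pad (log2 ratio 4.38). That was 5738 times the level of 3 counts over the culture group. It reached 20 CPM in 25.0% of thinned fat pad cells (16.2 to 35.6%) and 0% of cultured cells, and unthinned in 27.1 and 0%.

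Chemokine genes lay on both sides of the comparison. Cxcl1, a neutrophil attractant, ran from 21.9 to 13670 CPM (median 810) against 0.771 to 3394 CPM (median 73.6), a log2 ratio of 3.05. Cxcl5, which acts on the same receptor, had medians of 0.570 and 78.6 CPM and a log2 ratio of -3.24. Csf3, the granulocyte growth factor G-CSF, was at -1.34. Of 10 such genes 4 were at least 2-fold higher and 3 lower; the median of -0.28 was 0.62 with host-like wells counted in. One of the lower, Cxcl3 at -1.95, was 0.14 in the median cell and 1.28 with host-like wells. Of 9 monocyte and lymphocyte chemokines 5 were at least 2-fold higher and 3 lower (median 1.15, or 2.06 with host-like wells counted in). Cx3cl1, fractalkine, had medians of 361 and 37.5 CPM (2.92). Ccl2, the monocyte attractant, was at 1.92 in sums with medians of 3.64 and 5.30 CPM, and at -0.17 in the median cell. The NF-kB regulators Nfkbiz and Nfkbia were at 3.61 and 2.91 and the precursor Nfkb2 at -1.42. Of 24 NF-kB and interleukin 1 genes 9 were at least 2-fold higher and 2 lower (median 0.47, or -0.15 in the median cell). The median of all genes in the median cell was -0.74.

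Of 25 secretory and luminal mammary genes 10 reached 5 CPM, of which 7 were at least 2-fold higher and none lower (median 1.45). The other 15 stayed under 5 CPM in both groups. The milk protein genes Csn2, Csn3, Wap and Lalba had a median of 0 in the fat pad tumour cells. Members under 5 CPM in culture entered only through the fat pad, so the count of higher genes depends on this filter. Xdh, xanthine dehydrogenase, which coats milk fat globules, ran from 1.3 to 652 CPM (median 99.6) against at most 56.9 CPM in culture, a log2 ratio of 3.61. Muc1, an apical mucin, was at 3.35 with a median of 1.49 CPM, and Trps1, a luminal transcription factor, at 2.16 with medians of 205 and 51.3 CPM. Ltf, lactoferrin, had 2 counts in all cultured cells and ran from 0.323 to 2658 CPM (median 1.73) in the fat pad.

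**Figure D4:**
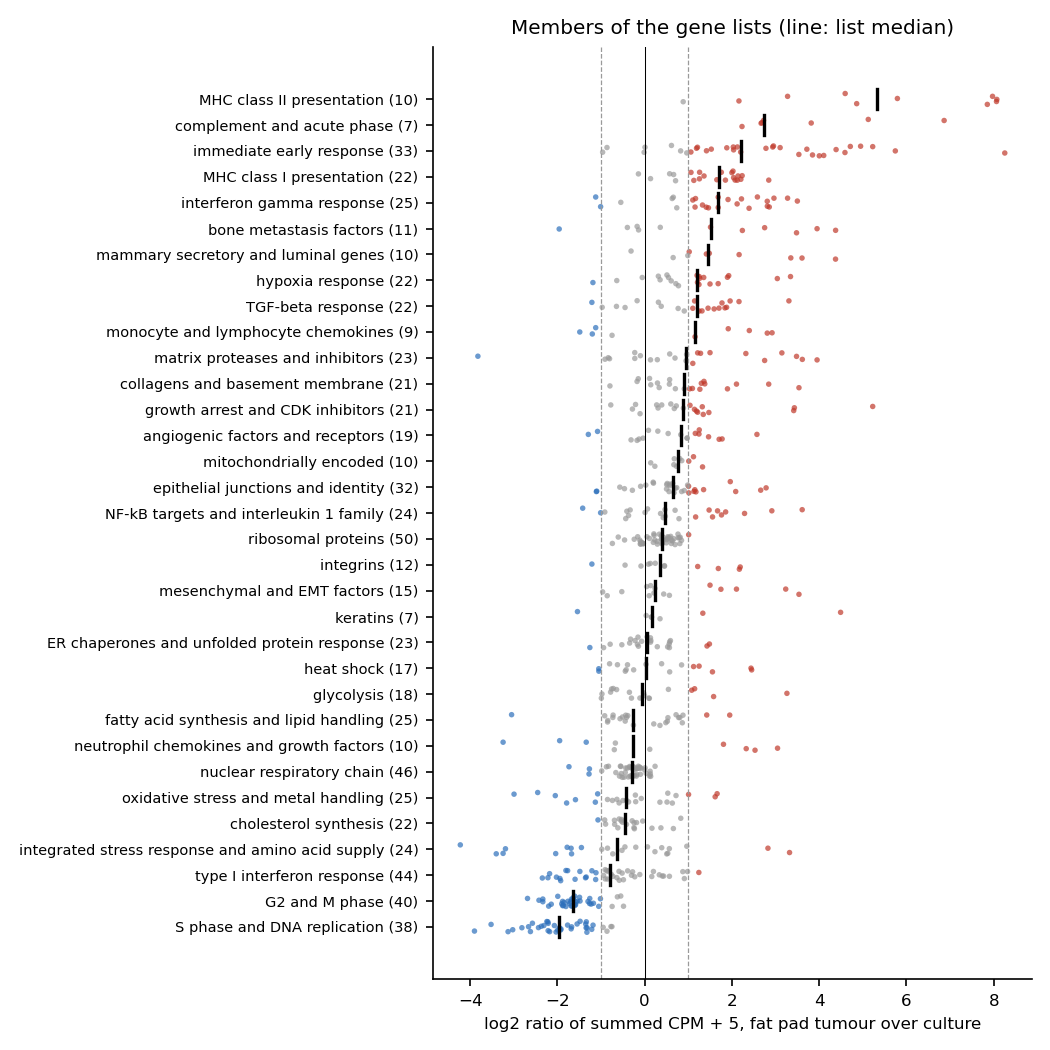
Each row is 1 gene list, with a point for the log2 ratio of each member at 5 CPM or more in either group (fat pad tumour over culture, log2(CPM + 5) of sums) coloured where at least 2-fold apart, and a vertical bar at the list's median; the number beside each name counts its points. Class II (5.33) and complement genes (2.72) have the highest medians, and S phase (-1.97) and G2 and M genes (-1.63) the lowest; dashed lines mark 2-fold.

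The 12 genes that varied most among the fat pad cells were Cyr61, Spp1, Krt14, Mmp9, Vim, Fbln2, Mmp3, Cxcl1, Ly6c1, Ptgs2, Il1a and Htra1. Over 3438 genes with a mean of 50 CPM or more in the tumour, the gap between the 10th and 90th percentiles of log2(CPM + 5) had a median of 4.48. Cyr61, a matricellular protein, had the largest gap at 7.15, followed by Spp1 (7.00) and Krt14 (6.96). Some of these genes varied as much in culture (Krt14 at 7.43 and Vim at 6.97). Others varied far less there: Htra1, a secreted protease, had gaps of 6.55 and 1.73, Fbln2, fibulin 2, 6.71 and 2.61, Mmp3 6.70 and 3.02, and the surface antigen gene Ly6c1 6.63 and 2.26. Ly6c1 ran from 1.63 to 2137 CPM (median 161) in the fat pad and from 0 to 29.9 CPM in culture (log2 ratio 5.23), although reads may be shared with near-identical Ly6 genes. Over fat pad cells Vim went with Ptgs2, the prostaglandin synthase COX-2 (rho 0.64, and 0.17 over cultured cells), with Htra1 (0.58 and 0.22) and with Fbln2 (0.54 and 0.05). Mmp3 went with Htra1 (0.62 and 0.10). Krt14 went against Vim in both groups (-0.31 and -0.61). The class II score went with the interferon gamma list, which holds Ciita too (0.59, and 0.40 over cultured cells), and with class I (0.61 and 0.10).

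The bone groups of the study are set beside the fat pad by summed CPM, with the same culture sample as reference, so they share its values. The order of values below is day 4 (137 cells), day 10 (54 cells) and day 16 (70 cells). H2-Ab1 stood at 16.3, 1018 and 731 CPM in bone against 1251 CPM in the fat pad, and Cd74 at 48.0, 1584 and 1720 CPM against 2529 CPM. Fos was high at every bone day (7005, 4412 and 11779 CPM). Rrm2 stood at 408, 333 and 32.9 CPM, the last close to the 30.3 CPM of the fat pad, and Psat1 at 322, 207 and 16.7 CPM against 23.9 CPM. Epcam stood at 68.9, 84.0 and 826 CPM against 1420 CPM in the fat pad and 202 CPM in culture. A few genes were far below the fat pad level at every bone day. Tmprss6 stood at 0.00225, 2.71 and 21.5 CPM against 272 CPM, Krt17 at 1.5, 0.317 and 0.00438 CPM against 125 CPM, Ibsp at 0.912, 0.243 and 9.63 CPM against 98.8 CPM, and Ccl2 at 16.4, 4.55 and 3.68 CPM against 167 CPM. Gbp4 stood at 92.1, 420 and 104 CPM against 398 CPM, and Oasl1 at 74.6, 22.4 and 6.69 CPM against 45.9 CPM and 253 CPM in culture. Without replicates these differences have no check against the spread between mice.

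**Figure D5:**
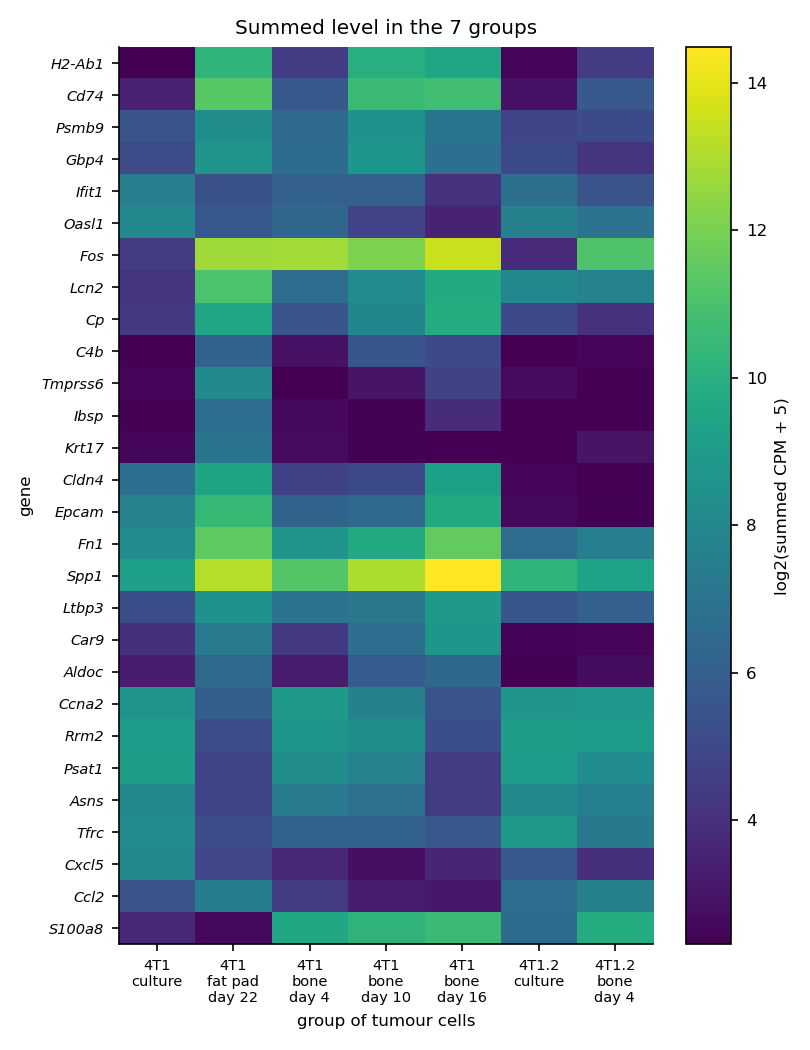
Rows are 28 named genes and columns the 7 groups of tumour cells (culture, fat pad tumour and bone days for 4T1, culture and bone day 4 for 4T1.2); the colour gives log2(CPM + 5) of summed counts. H2-Ab1 and Cd74 are high in the fat pad and on bone days 10 and 16, while Tmprss6 and Krt17 are highest in the fat pad.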

How the data were processed

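The deposited table gave whole-number read counts per gene and well, made by the authors with a modified Smart-seq2 protocol and 150-base paired reads; per the submitters' processing notes, Trim Galore 0.6.6, STAR 2.6.0c and featureCounts 1.6.2 were used with mm10. The annotation and strand setting are not given in the sources used here, and the protocol says that wells with an mCherry qPCR Ct above 30 were discarded. Spike-ins, reporters and 4 repeated symbols (0.670%, 0.187% and 0.0149% of all counts) stayed out of totals.

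Per-cell levels were CPM of the cell's own total. For each group the tumour cells' counts were added up, with TMM factors over the 7 groups (edgeR 4.0.16). The ratio was log2(CPM + 5), over genes at 5 CPM or more in either group. No edgeR or DESeq2 test was run, because the labels name no animal, plate or culture, so the cells of a group were 1 sample. Exact Poisson intervals (95%) of summed levels cover counting error only. Exact binomial intervals (95%) of shares cover the drawing of cells within 1 sample and not the spread between mice. Thinning drew 500000 counts per cell without replacement, leaving out 1 shallower cell in each group. The calculation was tested on simulated data. Doublets were not called, since cells were sorted singly; wells of mixed content were left out as an alternative. Gene positions are GENCODE M21 and promoters RefSeq.

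Members, lists and tests were chosen with earlier results of these data known, and the Y box and ATF4 motifs were added after the levels were seen. Named genes were the 12 furthest higher and lower at 20 CPM or more, detected in at least 30% of cells of the higher group; up to 4 members of each list in the direction of its median and 2 in the other; the 12 most variable genes of the tumour; and marker genes. H2-Oa, Dusp1, Csn2, Csn3, Wap and Lalba were also named, chosen after their values were seen. The 15 alternatives changed the scaling, pseudocount, filter, weighting of cells, depth, cell rule or highest cell. Results on a few list members are not reported here.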

Additional observations from a re-analysis of the deposited data

How the results depend on the processing

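No paired analysis was possible because the wells carry only running numbers and each group is 1 sample. Over 15 alternatives the count of genes at least 2-fold higher ran from 655 to 1884 and of lower from 472 to 3689. A pseudocount of 20 CPM gave 655 higher and 472 lower, all among those called with 5 CPM, and the median cell gave 702 and 3689, where the median of all genes was -0.74. The other 13 stayed within 1.5 times of both counts, but without TMM the split was 1123 against 1402. Not all of the 13 could move the counts. With no filter on low counts they were again 1360 and 1021. Genes under 5 CPM in both groups cannot reach 2-fold with a pseudocount of 5 CPM. Asking for keratins at least 10 times the blood-cell genes left out no well of either group and changed only the scaling. Over the 13 alternatives that recompute single genes, 1 of 312 values of the 24 furthest genes was under 2-fold (Serpinb2, -0.18 in the median cell). These 24 genes were picked for the largest ratios in the same data. They also had to be at least 2-fold apart with cells weighted equally, which is 1 of the 13 alternatives. The count is therefore a description and no check on these genes.

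Among list medians of at least 0.25 in size and gene ratios of at least 2-fold, 4 alternatives changed a direction. In the median cell the list medians turned for hypoxia (-0.431), NF-kB (-0.1529), matrix proteases (-0.0053), angiogenic factors (-0.6062) and bone metastasis factors (-0.4492). There the single ratios turned for Ccl2 (-0.1679), Cxcl3 (0.1363), Hspb1 (-0.2184), Icam1 (0.0974), Itgb3 (-0.0619), Lamb2 (-0.685) and Mmp3 (-0.1062). All genes had a median of -0.74 in the median cell, so the negative values above lie over that level. With host-like wells included, neutrophil chemokines turned to 0.6197, Cxcl3 to 1.2755 and Rsad2 to 0.0366. With no filter on low counts, neutrophil chemokines turned to 0.0058. Without the highest cell of each gene, Cxcl11 turned to 0.5855, Icam1 to 0.6424 and S100a8 to 0.0035. The cause was not tested. Of values nearer 0, 6 gene ratios (Cd68, Fbln2, Il1a, Insig1, Krt14 and Ndufc2) and 5 list medians (keratins, glycolysis, heat shock, mesenchymal genes and endoplasmic reticulum chaperones) also changed sign under at least 1 alternative.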

Other observations

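Angiogenic genes were more often higher than lower in the fat pad, 7 and 2 of 19, with a median log2 ratio of 0.83 that was -0.61 in the median cell. Pgf, a placental member of the VEGF family, summed to 58.6 CPM in the fat pad and 5.68 CPM in culture (2.57). Of 11 bone metastasis factors, 6 were at least 2-fold higher and 1, the protease inhibitor Cst6, lower. Their median of 1.51 was -0.45 in the median cell. The median of all genes there was -0.74, which also stands beside the -0.61 of the angiogenic genes.

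Several housekeeping groups stayed mostly within 2-fold. Of 50 ribosomal protein genes 1 was at least 2-fold higher (median 0.39), and of 46 nuclear genes of the respiratory chain 3 were lower (median -0.28), among them Cycs, cytochrome c, at -1.73. The mitochondrially encoded genes had a median of 0.77 with 3 of 10 higher, in cells whose mitochondrial share was itself higher. The 22 cholesterol synthesis genes had a median of -0.44. Of 25 fatty acid genes 2 were higher and 1 lower (median -0.26), the lower one being Fabp5, a fatty acid carrier with medians of 1.35 and 137 CPM and 78 of 85 fat pad cells under the lowest cultured cell (-3.05). Of 23 chaperone genes of the endoplasmic reticulum 2 were higher, Dnajb9 and Xbp1 at 1.48 and 1.43, and 1 was lower (median 0.06). Among 17 heat shock genes 5 were higher and 2 lower (median 0.03), with Dnajb1 at 2.45 and medians of 176 and 97.9 CPM.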
